A study of Mus musculus with 9 samples.

Results

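The myogenic transcription factor genes examined here were the 4 myogenic regulatory factors Myod1, Myf5, Myog and Myf6, the MEF2 genes Mef2a, Mef2c and Mef2d, and the PAX genes Pax3 and Pax7. They were chosen by name from the table of counts per gene, which listed 52780 genes, and all 9 were found. Of the 9, 8 passed the filter on low counts and were tested among 19545 genes, while Pax3 was too low to be tested. They were measured by mRNA sequencing in 9 samples of C2C12, an immortalized line of mouse myoblasts that fuses into myotubes when serum is withdrawn, so that a single line stands for all groups. The cells were collected on day 4 in differentiation medium in 3 groups of 3 samples. Control samples are labelled wild type, and the labels do not say whether they received a control siRNA. The other groups, si mH2A1.1 and si mH2A1.2, received 10 nM siRNA against the macroH2A1.1 or the macroH2A1.2 splice isoform of the histone variant macroH2A1, delivered repeatedly from before the medium change. The comparisons address how each isoform affects gene expression in myotubes. The study describes its replicates as biologically independent, and the labels add nothing on how the cultures were kept apart.

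The myogenic regulatory factors are basic helix-loop-helix proteins that pair with E proteins and bind E-boxes in muscle genes. MyoD and Myf5 act in the commitment of myoblasts, myogenin drives terminal differentiation, and Myf6, also called MRF4, acts late and prevails in adult muscle fibers. MEF2 proteins are MADS-box factors that bind A/T-rich sites and act together with the myogenic factors on structural and metabolic muscle genes. Pax3 and Pax7 are paired-box factors of muscle progenitors and satellite cells, and their expression falls as the cells differentiate.

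Total counts ranged from 36924252 to 42223108 per sample, so that 3 counts, taken as the smallest amount distinguishable from 0, corresponded to between 0.0691 and 0.0826 CPM, the counts scaled to the library total. This limit covers counting error only. All 10 markers of differentiated muscle were detected in every group, with a summed level of 21983 to 32237 CPM in control, 20223 to 23990 CPM in si mH2A1.1 and 18431 to 23505 CPM in si mH2A1.2, although the source of the samples is labelled myoblast. H2afy, which encodes both macroH2A1 isoforms, averaged 59.9 ± 3.18 CPM (SD, n = 3) in control, 33.3 ± 4.87 in si mH2A1.1 and 45.7 ± 2.20 in si mH2A1.2. The log2 fold change from control of H2afy was -0.85 for si mH2A1.1 (edgeR adjusted p = 0.00331) and -0.39 for si mH2A1.2 (edgeR adjusted p = 0.108), and the summed counts do not separate the isoforms. These are bulk samples, in which fewer cells of a type and less RNA per cell cannot be told apart.

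In the GRCm38 build, Myf5 (ENSMUSG00000000435, chr10:107482908-107486134) and Myf6 (ENSMUSG00000035923, chr10:107492853-107494737) lie on the minus strand of chromosome 10, separated by 6718 bp. Myog (ENSMUSG00000026459) lies on the plus strand at chr1:134289989-134292548, and Myod1 (ENSMUSG00000009471) on the plus strand at chr7:46376474-46379099. Mef2a (ENSMUSG00000030557) covers chr7:67231163-67372858 on the minus strand, Mef2c (ENSMUSG00000005583) covers chr13:83504034-83667080 on the plus strand, and Mef2d (ENSMUSG00000001419) covers chr3:88142372-88172086 on the plus strand. Pax3 (ENSMUSG00000004872) lies at chr1:78101267-78197134 and Pax7 (ENSMUSG00000028736) at chr4:139737062-139833528, both on the minus strand. Sequence before the gene start, from RefSeq on GRCm38.p6, was matched for 6 of the 9 genes, and is shown 5′ to 3′ along the gene for 3 that were higher or lower in the tests below, Myog (chr1:134289754-134289988, plus strand), Myf5 (chr10:107486135-107486384, minus strand) and Mef2a (chr7:67372859-67373108, minus strand). Capitals mark E-boxes of the form CANNTG and MEF2 motifs.
Myog: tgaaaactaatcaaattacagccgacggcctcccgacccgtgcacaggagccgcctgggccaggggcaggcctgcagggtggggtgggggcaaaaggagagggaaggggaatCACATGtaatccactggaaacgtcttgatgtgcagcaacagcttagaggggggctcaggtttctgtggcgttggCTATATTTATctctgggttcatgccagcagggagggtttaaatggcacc
Myf5: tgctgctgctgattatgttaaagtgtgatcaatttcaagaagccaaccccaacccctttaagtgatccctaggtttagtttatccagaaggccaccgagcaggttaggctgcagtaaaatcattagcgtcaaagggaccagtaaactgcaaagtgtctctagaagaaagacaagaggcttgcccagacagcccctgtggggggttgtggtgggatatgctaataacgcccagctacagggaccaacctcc
Mef2a: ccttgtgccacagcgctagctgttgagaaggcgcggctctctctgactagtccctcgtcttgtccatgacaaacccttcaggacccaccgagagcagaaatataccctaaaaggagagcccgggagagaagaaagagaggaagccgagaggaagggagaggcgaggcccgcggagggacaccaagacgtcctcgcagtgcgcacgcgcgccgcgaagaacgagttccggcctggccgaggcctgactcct
The Myog sequence holds the E-box CACATG, which starts 123 bases before the gene start, and the A/T-rich MEF2 motif CTATATTTAT, which starts 49 bases before it. The Myf5 and Mef2a sequences as printed hold neither. The full windows of 300 bases run past the gene start. In these, Mef2a holds 1 MEF2 motif, Myog holds 2 CANNTG and 1 MEF2 motif, and Myf5 holds neither. Mef2c, which passed no test below, also holds 2 CANNTG and 1 MEF2 motif in the window at its gene start, and Mef2d and Pax7 hold neither. Among 32851 RefSeq promoter windows of 300 bases, searched on both strands, 72.3% hold CANNTG, 16.3% hold its subset CAGCTG and 7.67% hold the MEF2 motif, whose form was chosen after the Myog sequence was seen. A match is a description of the letters and not a measured binding site.

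With si mH2A1.1, Myf6 and Mef2a rose and Myog fell against control. With si mH2A1.2, Myf6 and Myf5 fell. Between the knockdowns, Myf6, Myf5, Pax7 and Mef2a were higher and Myog was lower in si mH2A1.1. Myod1, Mef2c and Mef2d did not pass the test in any comparison. A gene was called at an adjusted p of at most 0.05 (edgeR, over all tested genes), and both comparisons with control share the control samples. With 1 of the 9 samples left out, the calls of Myf6 held in all 9 fits, and that of Myf5 with si mH2A1.2 in 0. Those of Mef2a and Myog held in 7 and 5 fits for si mH2A1.1 against control, and in 4 and 2 between the knockdowns.

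In si mH2A1.1 against control, 3 of the 8 tested factors were called, 2 higher and 1 lower, beside 11.1% of all tested genes, with 6.18% of all tested genes higher and 4.93% lower. The samples of the 2 groups did not overlap for 6 of the 8 factors, beside 34.2% of all genes. In si mH2A1.2 against control, 2 were called, both lower, beside 2.35% of all genes, with 1.37% higher and 0.982% lower. Here 3 factors did not overlap, beside 22.5% of all genes. With samples of the same replicate number blocked, 1005 in place of 460 genes were called in this comparison, and the count of factors stayed at 2. In si mH2A1.1 against si mH2A1.2, 5 factors were called, 4 higher and 1 lower, beside 22.5% of all genes, with 12% higher and 10.5% lower, and 6 factors did not overlap, beside 39.7% of all genes. The median log2 fold change of the 8 factors was 0.23, -0.22 and 0.37 in the 3 comparisons, where that of all genes was -0.0091, -0.0001 and -0.0091. The factors were chosen with earlier results of these data known, among them the change of Myf6, so these counts are a description.

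**Figure D1:**
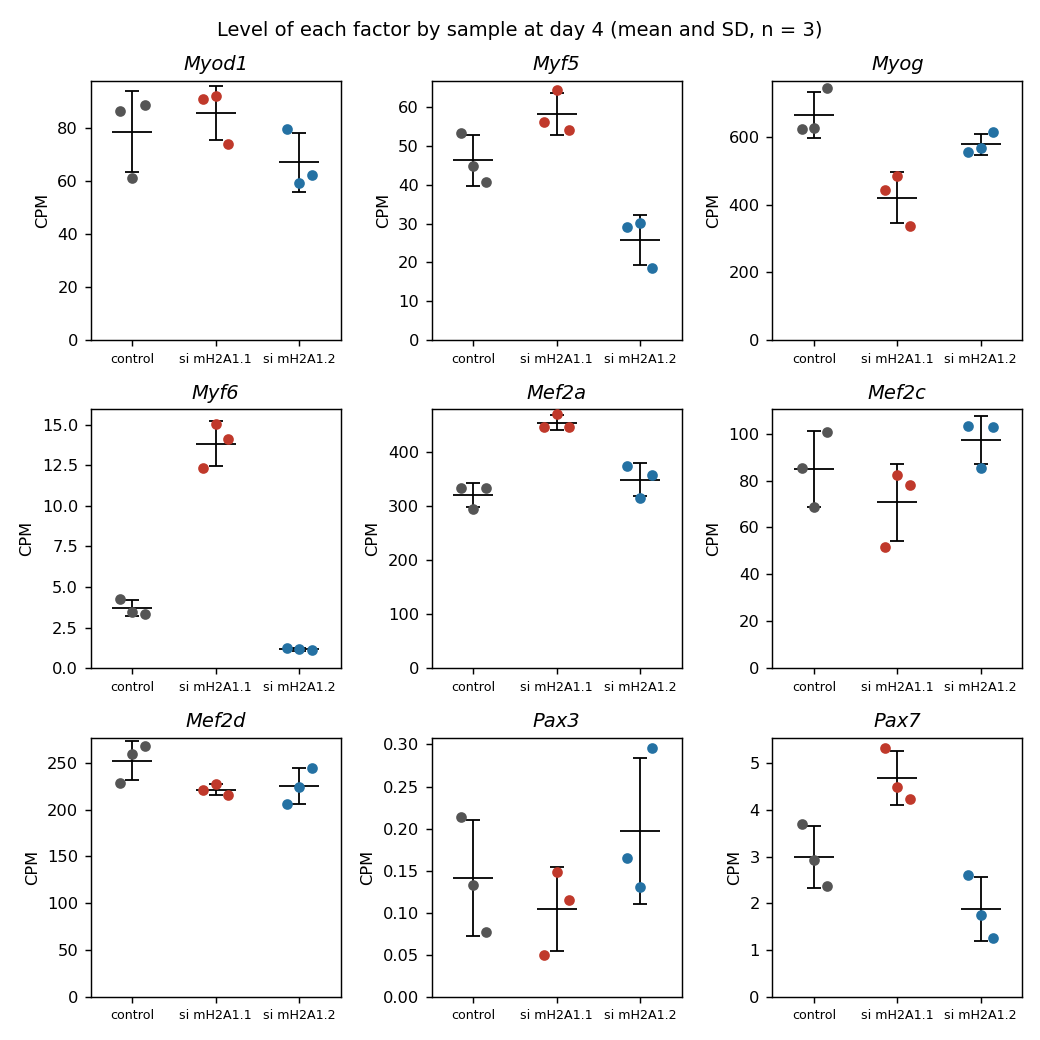
CPM of each of the 9 factors by group, 1 panel per factor with its own axis from 0, with a point for each sample and bars for the mean and SD of 3 samples. The 3 groups separate fully for Myf6, with si mH2A1.1 at 12.3 to 15.04 CPM, control at 3.35 to 4.26 CPM and si mH2A1.2 at 1.101 to 1.27 CPM, while the groups overlap for Myod1 (59.3 to 91.8 CPM over all samples).

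Among the myogenic regulatory factors, Myf6 showed the largest differences in all 3 comparisons. It was measured at 4.26, 3.46 and 3.35 CPM in control (159, 130 and 130 counts). It reached 12.3, 15.04 and 14.1 CPM in si mH2A1.1 (498, 609 and 613 counts). It was at 1.27, 1.17 and 1.101 CPM in si mH2A1.2 (46, 45 and 41 counts). Every si mH2A1.1 sample was above, and every si mH2A1.2 sample below, every control sample. Myf6 was 3.74-fold higher with si mH2A1.1 than in control, a log2 fold change of 1.90 (SE 0.15, edgeR adjusted p = 0.000347). Myf6 in si mH2A1.2 had a log2 fold change of -1.64 (SE 0.17, edgeR adjusted p = 0.00481). Between the knockdowns it differed 11.7-fold, a log2 fold change of 3.55 (SE 0.17, 95% interval 3.17 to 3.92, edgeR adjusted p = 1.8e-05). It remained called in all 3 comparisons whichever of the 9 samples was left out, with adjusted p-values up to 0.0278.

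Myf5, the neighbor of Myf6, was the only other factor called lower with si mH2A1.2. Its levels were 53.4, 45.0 and 40.6 CPM in control, 56.2, 64.5 and 54.1 CPM in si mH2A1.1, and 29.1, 30.1 and 18.4 CPM in si mH2A1.2. All si mH2A1.2 samples were below all control samples, whereas the lowest si mH2A1.1 sample was barely above the highest control sample. Relative to control, Myf5 had a log2 fold change of -0.84 in si mH2A1.2 (SE 0.18, edgeR adjusted p = 0.0422) and 0.33 in si mH2A1.1 (SE 0.18, edgeR adjusted p = 0.239, 95% interval -0.06 to 0.72). Between the knockdowns Myf5 was 2.25-fold higher in si mH2A1.1, a log2 fold change of 1.17 (SE 0.18, edgeR adjusted p = 0.00203), which remained called without any of the 9 samples. The fall with si mH2A1.2 was not called when any sample was left out (adjusted p from 0.0507 to 0.149), nor with only the samples of both groups in the fit (adjusted p = 0.0798).

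Of the 22 other annotated genes within 1 Mb of this pair, 6 were tested. By edgeR 0, 0 and 1 of them (Pawr) were called in the 3 comparisons, beside 11.1%, 2.35% and 22.5% of all tested genes. DESeq2 also called 0, 0 and 1, and 1 had an unadjusted p under 0.05 in each. The ratio of Myf6 to Myf5 per kilobase of exon was 0.132, 0.127 and 0.136 in control. It was 0.361, 0.385 and 0.431 in si mH2A1.1 and 0.0718, 0.0643 and 0.0984 in si mH2A1.2. The groups did not overlap in this ratio, so that Myf6 differed by more than Myf5 in the same samples. The smallest p that an exact two-sided permutation test of 3 against 3 samples can give is 0.1.

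Myog, the most abundant factor, was measured at 624, 628 and 745 CPM in control, 442, 484 and 337 CPM in si mH2A1.1, and 556, 567 and 614 CPM in si mH2A1.2. The si mH2A1.1 samples were the lowest of all, and the si mH2A1.2 samples lay between the other groups without overlap. Relative to control, Myog had a log2 fold change of -0.66 in si mH2A1.1 (SE 0.14, edgeR adjusted p = 0.0204) and -0.20 in si mH2A1.2 (SE 0.14, edgeR adjusted p = 0.553, 95% interval -0.52 to 0.12). Between the knockdowns it was -0.46 (SE 0.14, edgeR adjusted p = 0.0435). The first of these calls was lost without control replicate 2 or 3 or si mH2A1.1 replicate 1 or 3, with adjusted p-values up to 0.0662. The call between the knockdowns held in 2 of the 9 fits without a sample, with adjusted p-values up to 0.133 (without si mH2A1.1 replicate 3), and was also lost with only the samples of both groups (adjusted p = 0.063).

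Myod1 did not differ detectably between the groups. Its levels were 86.1, 60.9 and 88.5 CPM in control, 90.7, 91.8 and 73.7 CPM in si mH2A1.1, and 79.6, 59.3 and 62.0 CPM in si mH2A1.2, and all 3 groups overlapped. Myod1 had a log2 fold change of 0.12 in si mH2A1.1 (95% interval -0.24 to 0.49, edgeR adjusted p = 0.661) and -0.23 in si mH2A1.2 (95% interval -0.60 to 0.14, edgeR adjusted p = 0.555). Between the knockdowns it was 0.35 (95% interval -0.01 to 0.72, edgeR adjusted p = 0.153).

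**Figure D2:**
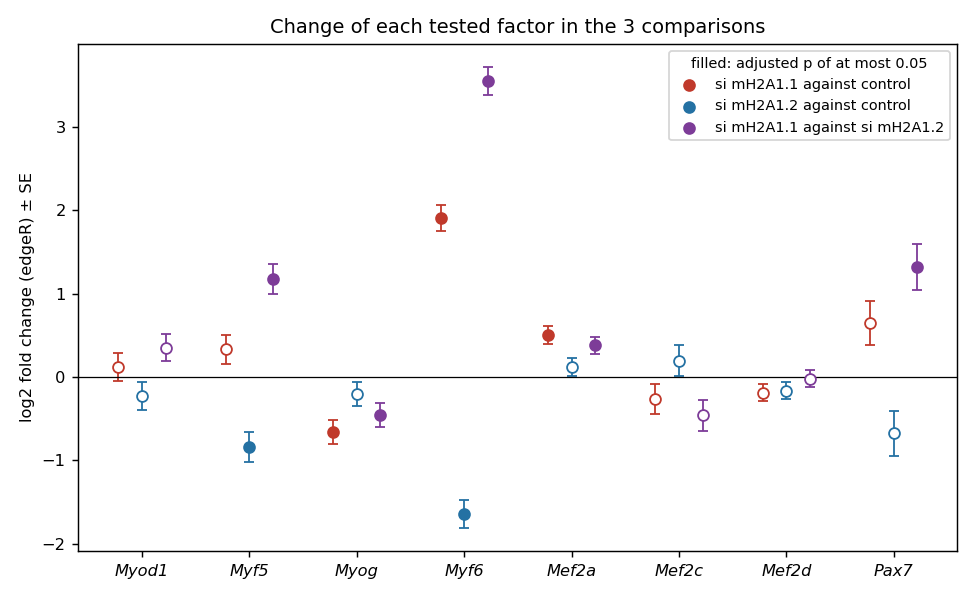
Log2 fold change of the 8 tested factors in the 3 comparisons, with bars for the standard error from edgeR and filled points for an adjusted p of at most 0.05. Myf6 has values of 1.90, -1.64 and 3.55, while Mef2d has -0.19, -0.16 and -0.02.

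Among the MEF2 genes, Mef2a was called, higher with si mH2A1.1. It was measured at 334, 294 and 334 CPM in control, 446, 470 and 446 CPM in si mH2A1.1, and 374, 314 and 358 CPM in si mH2A1.2. All si mH2A1.1 samples were above those of the other groups, and the si mH2A1.2 and control samples overlapped. Mef2a was 1.42-fold higher with si mH2A1.1 than in control, a log2 fold change of 0.50 (SE 0.10, edgeR adjusted p = 0.0176), which was lost without control replicate 2 (adjusted p = 0.077) or si mH2A1.1 replicate 3 (adjusted p = 0.0565). With si mH2A1.2 it was 0.12 (95% interval -0.11 to 0.35, edgeR adjusted p = 0.640). Between the knockdowns it was 0.38 (SE 0.10, edgeR adjusted p = 0.0265), a call that held in 4 of the 9 fits without a sample, with adjusted p-values up to 0.119 without si mH2A1.2 replicate 2. Lysmd4 overlaps Mef2a on the opposite strand at a mean of 11.7 CPM, and it was lower in si mH2A1.1 by a log2 fold change of -0.54 (edgeR adjusted p = 0.0368). The sources used here do not state whether the counting used strand.

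Mef2c and Mef2d did not pass the test. Mef2c was at 85.2, 68.6 and 101 CPM in control, 51.8, 82.2 and 77.9 CPM in si mH2A1.1, and 103, 85.3 and 103 CPM in si mH2A1.2. Its si mH2A1.1 samples lay below all si mH2A1.2 samples, with a log2 fold change of -0.46 (95% interval -0.87 to -0.05, edgeR adjusted p = 0.101), and overlapped control (-0.26, 95% interval -0.68 to 0.15, edgeR adjusted p = 0.372). Between si mH2A1.2 and control the log2 fold change of Mef2c was 0.20 (95% interval -0.22 to 0.61, edgeR adjusted p = 0.680). Mef2d was the most even of the MEF2 genes, at 229, 260 and 268 CPM in control, 221, 228 and 216 CPM in si mH2A1.1, and 206, 225 and 245 CPM in si mH2A1.2. All its si mH2A1.1 samples lay below all control samples, though barely (227.8 against 228.6 CPM at the nearest). Between the knockdowns the log2 fold change of Mef2d was -0.02 (95% interval -0.25 to 0.20, edgeR adjusted p = 0.894). Against control it was -0.19 in si mH2A1.1 (95% interval -0.41 to 0.04, edgeR adjusted p = 0.246) and -0.16 in si mH2A1.2 (95% interval -0.39 to 0.06, edgeR adjusted p = 0.480).

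The PAX genes were the lowest of the factors per kilobase of exon. Pax7 was measured at 3.69, 2.93 and 2.37 CPM in control, 5.33, 4.50 and 4.24 CPM in si mH2A1.1, and 2.62, 1.75 and 1.26 CPM in si mH2A1.2, from 47 to 216 counts per sample. All si mH2A1.1 samples were above all others, while si mH2A1.2 and control overlapped. Between the knockdowns Pax7 was higher in si mH2A1.1, by a log2 fold change of 1.32 (SE 0.27, edgeR adjusted p = 0.00811), which remained called without any of the 9 samples (adjusted p up to 0.0397). Against control the log2 fold change of Pax7 was 0.64 in si mH2A1.1 (95% interval 0.06 to 1.23, edgeR adjusted p = 0.136) and -0.68 in si mH2A1.2 (95% interval -1.29 to -0.07, edgeR adjusted p = 0.258). Pax3 had 8, 5 and 3 counts in control, 2, 6 and 5 in si mH2A1.1, and 6, 5 and 11 in si mH2A1.2, and at these counts a difference between groups was not detectable.

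Levels of different genes were compared as CPM per kilobase of merged exons. In control, Myog was at 445 ± 46.2 (SD, n = 3), followed by Myod1 at 42.2 ± 8.20 and Mef2d at 42.1 ± 3.50, which did not differ beyond their spread. Myf5 at 22.2 ± 3.10 and Mef2a at 21.8 ± 1.56 did not differ beyond their spread either. Below these stood Mef2c at 5.40 ± 1.03, Myf6 at 2.92 ± 0.390, Pax7 at 0.512 ± 0.113 and Pax3 at 0.0229 ± 0.0111. By the length of the longest transcript, Mef2a stood at 57.9 and Mef2c at 13.5, so that Mef2a ranked above Myod1. In si mH2A1.1, Myf6 reached 10.9 ± 1.11 and stood above Mef2c at 4.50 ± 1.05, whereas by the longest transcript Mef2c was at 11.3. In si mH2A1.2, Myf6 was at 0.935 ± 0.0656, nearer to Pax7 at 0.320 ± 0.117 than to Mef2c at 6.18 ± 0.656.

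The makeup of the myogenic regulatory factor transcripts differed from control in si mH2A1.1, and in si mH2A1.2 only in the small shares of Myf5 and Myf6. Of the summed level of the 4 factors per kilobase, Myog made up 86.8% ± 1.83 (SD, n = 3) in control, 76.7% ± 1.80 in si mH2A1.1 and 88.7% ± 1.99 in si mH2A1.2. Its share ranged from 74.6% to 77.8% in the si mH2A1.1 samples and from 84.7% to 88.0% in control, without overlap. In the si mH2A1.2 samples it ranged from 86.6% to 90.5% and overlapped control. Myod1 made up 8.21% ± 1.27 in control, 12.6% ± 0.652 in si mH2A1.1 and 8.25% ± 1.47 in si mH2A1.2. The share of Myf5 was 4.39% ± 0.892, 7.71% ± 0.789 and 2.86% ± 0.794 in the same order. The share of Myf6 was 0.576% ± 0.109 in control, 3.04% ± 0.594 in si mH2A1.1 and 0.214% ± 0.0209 in si mH2A1.2. The shares of a sample add up to the whole, so a lower Myog level by itself raises the others. The larger share of Myod1 in si mH2A1.1 thus shows no rise of Myod1, whose level did not pass the test.

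**Figure D3:**
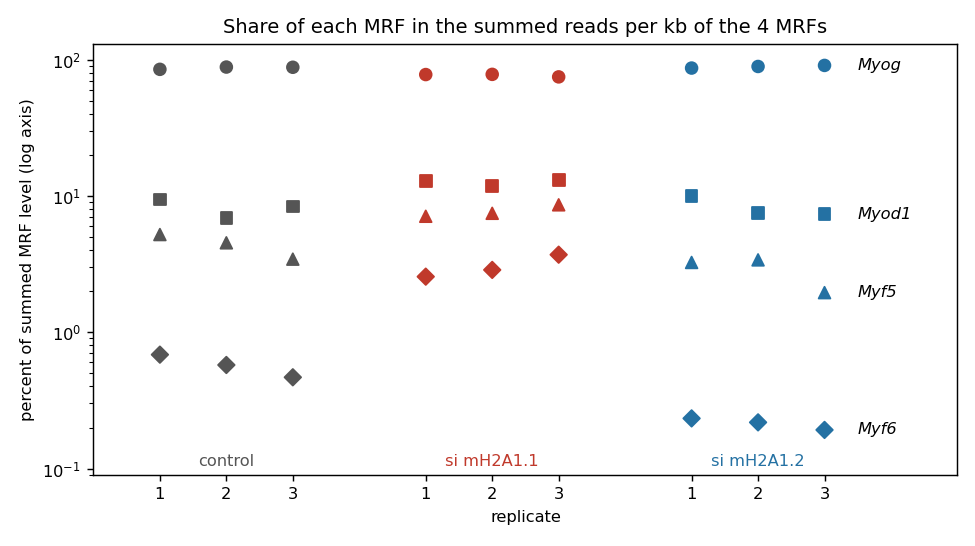
Share of each myogenic regulatory factor in their summed level per kilobase of exon, in percent on a log axis, with 1 symbol per factor in each of the 9 samples. Myog lies at 74.6% to 77.8% in si mH2A1.1 samples and at 84.7% to 88.0% in control samples, and Myf6 at 2.56% to 3.70% against 0.467% to 0.685%.

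The genes whose pattern over the 9 samples was most like each factor were taken by the Pearson correlation of log2 CPM among 14380 genes of at least 1 CPM. The 9 points fall into 3 groups, so these values largely reflect the group means and are given as a description. Myf6 was most like Gm36543 (r = 0.991), Anxa4 (0.988) and Selenot (0.987), and Myf5 was most like Rab11fip1 (0.986), Gm2381 (0.979) and Morc4 (0.978). Pax7 was most like Plau (0.990), Mapk11 (0.988) and Crym (0.987). Myog was most like Ncbp3 (0.973), Ddx52 (0.970) and Cpped1 (0.969), and Myod1 was most like Becn1 (0.974), Ebna1bp2 (0.953) and Zfp521 (0.948). For Mef2a the nearest were Borcs7 (0.974), Ctnnb1 (0.963) and Abcc9 (0.962), for Mef2c Gm3830 (0.979), Otog (0.962) and Tnrc6b (0.955), and for Mef2d Dlat (0.961), Rpl31-ps8 (0.957) and Klhdc3 (0.957). No factor was among the 3 nearest genes of another.

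Of 22 listed partners and inhibitors of the myogenic regulatory factors, 20 were tested, and 4, 0 and 10 of them were called in the 3 comparisons, beside 11.1%, 2.35% and 22.5% of all tested genes. With si mH2A1.1, 2 were higher than control and 2 were lower, at a median log2 fold change of 0.06. With si mH2A1.2, edgeR called 0, at a median of 0.29, while 4 had an unadjusted p under 0.05 and DESeq2 called 2. With the replicate block 1 was higher (Tcf12) and 1 lower (Hey1). Between the knockdowns, 4 were higher and 6 lower in si mH2A1.1, at a median of -0.25. Msc, which encodes musculin, a repressor of E-box genes, had the largest rise, from 2.57 ± 0.619 CPM (SD, n = 3) in control to 14.2 ± 6.80 CPM in si mH2A1.1, a log2 fold change of 2.47 (SE 0.42, edgeR adjusted p = 0.00776). Hey1, a Notch target repressor, rose by a log2 fold change of 1.46 (edgeR adjusted p = 0.0229). The repressor Snai1 (-0.96, edgeR adjusted p = 0.0478) and the E protein gene Tcf4 (-0.59, edgeR adjusted p = 0.0397) fell. Each of these 2 falls stayed called in 3 of the 9 fits without a sample (adjusted p up to 0.164 without control replicate 2 and 0.133 without si mH2A1.1 replicate 1), and that of Tcf4 was lost with only the samples of both groups (adjusted p = 0.0529). The rise of Hey1 held in 6 of the 9 fits (adjusted p up to 0.0903, without si mH2A1.1 replicate 1). The other E protein genes Tcf3 and Tcf12 had log2 fold changes of 0.17 and 0.30 in si mH2A1.1 and were not called by edgeR, while DESeq2 called Tcf12. Id3, whose product sequesters E proteins, was lower in si mH2A1.1 than in si mH2A1.2 by a log2 fold change of -1.06 (edgeR adjusted p = 0.0273). This call held in 5 of the 9 fits without a sample (edgeR adjusted p up to 0.0871, without si mH2A1.2 replicate 2).

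Of 22 MEF2 cofactors and regulators, 21 were tested, and 3, 0 and 9 of them were called in the 3 comparisons, beside 11.1%, 2.35% and 22.5% of all tested genes. With si mH2A1.1, edgeR called 0 higher and 3 lower than control, namely Vgll3 (log2 fold change -0.40, edgeR adjusted p = 0.0186) and Tead3 (-0.39, edgeR adjusted p = 0.0292), a cofactor and a member of the TEAD factors, and Mef2b. The calls of Vgll3 and Tead3 held in 6 and 5 of the 9 fits without a sample, with adjusted p up to 0.069 (without si mH2A1.1 replicate 3) and 0.0985 (without si mH2A1.1 replicate 1). Mef2b, the fourth MEF2 gene, averaged 0.695 ± 0.139 CPM (SD, n = 3) in control and 0.275 ± 0.0693 CPM in si mH2A1.1 (log2 fold change -1.33, edgeR adjusted p = 0.0284), and is named here after its values were seen. With si mH2A1.2, edgeR and DESeq2 each called 0, with 6 at an unadjusted p under 0.05, and 1 was higher (Ppp3ca) and 1 lower (Vgll2) with the replicate block. Between the knockdowns 4 were higher and 5 lower in si mH2A1.1. Mamstr, a coactivator of MEF2 (1.31, edgeR adjusted p = 0.0182), Smyd1, a muscle histone methyltransferase (0.94, edgeR adjusted p = 0.00658), and Srf (0.61, edgeR adjusted p = 0.00617) were higher, and Hdac7, a class IIa deacetylase that represses MEF2, was lower (-0.79, edgeR adjusted p = 0.0103). The median log2 fold change was -0.18, -0.12 and -0.20 in the 3 comparisons.

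Among the factors upstream of the myogenic regulatory factors, 13 of 19 premyogenic homeobox genes and their cofactors were tested, and 3, 0 and 7 of them were called in the 3 comparisons, beside 11.1%, 2.35% and 22.5% of all tested genes. With si mH2A1.1, 1 was higher and 2 were lower than control. Of these, Eya4, a transcriptional coactivator of homeobox factors, fell by 0.86 on the log2 scale (edgeR adjusted p = 0.00218). With si mH2A1.2, edgeR called 0 with and without the replicate block and DESeq2 called 0, with 3 at an unadjusted p under 0.05. Between the knockdowns, 2 were higher and 5 lower in si mH2A1.1, with Eya4 at -0.88 (edgeR adjusted p = 0.000428). The median log2 fold changes were -0.15, -0.13 and -0.01.

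All 22 listed target genes of the myogenic regulatory factors and MEF2 were tested, and 1, 3 and 7 of them were called in the 3 comparisons, beside 11.1%, 2.35% and 22.5% of all tested genes. DESeq2 called 4, 7 and 8, and 9, 11 and 10 had an unadjusted p under 0.05. With si mH2A1.1, edgeR called Mymx, which encodes the fusion peptide myomixer and fell by 0.82 on the log2 scale (edgeR adjusted p = 0.0221), which held in 5 of the 9 fits without a sample (adjusted p up to 0.0857, without si mH2A1.1 replicate 3). With si mH2A1.2, 3 were lower, namely Tnnt3 (-0.96, edgeR adjusted p = 0.028), Chrnd (-0.69, edgeR adjusted p = 0.0452) and Des (-0.62, edgeR adjusted p = 0.0466), which encode a fast troponin T, an acetylcholine receptor subunit and desmin. Leaving out 1 sample kept the call of Tnnt3 in 5 of 9 fits (adjusted p up to 0.106, without si mH2A1.2 replicate 2). It kept those of Chrnd and Des in 1 of 9 each, with adjusted p up to 0.153 (without si mH2A1.2 replicate 2) and 0.160 (without control replicate 1), and with only the samples of both groups they had adjusted p-values of 0.0792 and 0.0626. With the replicate block 6 were lower, these 3 and Ckm, Myl1 and Tnni2. Between the knockdowns, 6 were higher and 1 lower in si mH2A1.1, among them Ckm, the muscle creatine kinase gene (1.14, edgeR adjusted p = 0.00241), and Des (1.07, edgeR adjusted p = 0.000844). The median log2 fold changes were 0.05, -0.35 and 0.25. The direction of Mymx between the knockdowns was that of Myog, both lower in si mH2A1.1, and that of Ckm and Des was the opposite.

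Of 16 PAX target and satellite cell genes, 13 were tested, and 0, 0 and 6 of them were called in the 3 comparisons, beside 11.1%, 2.35% and 22.5% of all tested genes. By edgeR 0 were called against control with either siRNA (1 lower, Met, with si mH2A1.2 and the replicate block). At an unadjusted p under 0.05, 3 of the 13 passed in si mH2A1.1 and 4 in si mH2A1.2, and DESeq2 called 1 (Sdc3) and 1 (Spry1). Between the knockdowns 3 were higher in si mH2A1.1, including the zinc finger factor gene Plagl1 (log2 fold change 2.81, edgeR adjusted p = 0.00766) and Itga7, which encodes a laminin receptor subunit (0.94, edgeR adjusted p = 0.0293). Plagl1 had 180, 64 and 61 counts in si mH2A1.1 and 16, 13 and 10 in si mH2A1.2. The call of Itga7 held in 4 of the 9 fits without a sample (edgeR adjusted p up to 0.112, without si mH2A1.2 replicate 2). A further 3 were lower, including Cd34 (-1.41, edgeR adjusted p = 0.0154) and Spry1 (-0.79, edgeR adjusted p = 0.0081), a satellite cell surface marker and a growth factor signaling inhibitor. The median log2 fold changes were -0.07, 0.10 and -0.21.

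**Figure D4:**
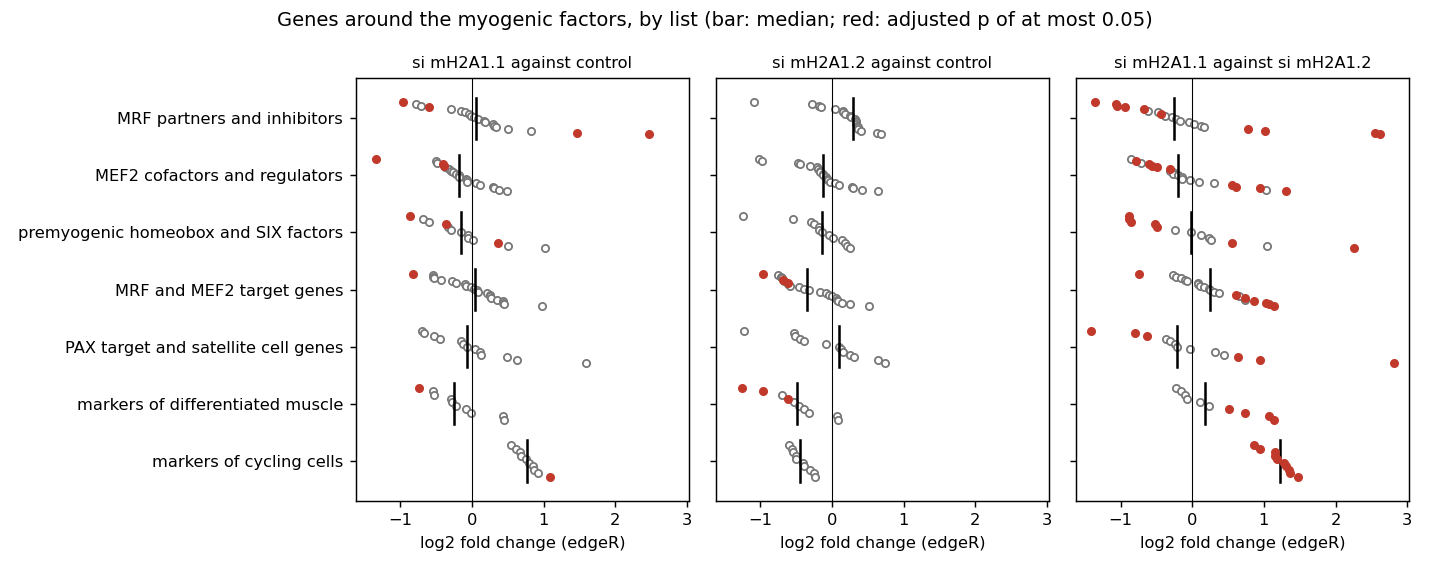
Log2 fold change of each tested gene of 7 lists (rows) in the 3 comparisons (panels), with a point per gene, filled red at an adjusted p of at most 0.05, and a bar for the median of each list. The medians of the MRF and MEF2 target genes are 0.05, -0.35 and 0.25.

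Markers of other cell states were examined in the same 3 comparisons, in which edgeR called 11.1%, 2.35% and 22.5% of all tested genes. The 10 cycling cell markers were all higher in si mH2A1.1 than in si mH2A1.2, at a median log2 fold change of 1.23, with summed levels of 494 to 1029 CPM in si mH2A1.1, 347 to 551 CPM in control and 274 to 398 CPM in si mH2A1.2. Against control, all 10 had log2 fold changes above 0 in si mH2A1.1 (median 0.78), of which edgeR called 1 (Plk1) and DESeq2 5, and 9 had an unadjusted p under 0.05. The call of Plk1 held in 3 of the 9 fits without a sample (edgeR adjusted p up to 0.153, without si mH2A1.1 replicate 1). In si mH2A1.2 all 10 were below 0 (median -0.45), and edgeR and DESeq2 each called 0, with 0 at an unadjusted p under 0.05. Of the 10 markers of differentiated muscle, 1 was lower in si mH2A1.1 (Actn2), beside 11.1% of all tested genes called. In si mH2A1.2, 3 were lower (Des, Tnnt3 and Actn2), beside 2.35%. Between the knockdowns 4 were higher in si mH2A1.1, beside 22.5%. DESeq2 called 3 (Myh3, Des and Actn2), 4 and 4 of the muscle markers in the 3 comparisons, and 5, 5 and 4 had an unadjusted p under 0.05. Their median log2 fold changes were -0.25, -0.49 and 0.17, with 2, 2 and 6 of the 10 above 0. Of 8 fibroadipogenic and fibroblast markers, 7 were tested. They summed to 340 to 551 CPM in control, 467 to 637 CPM in si mH2A1.1 and 338 to 559 CPM in si mH2A1.2, sums to which Ly6a alone gave 349, 476 and 271 CPM on average. Against control, 3 were higher in si mH2A1.2 (Dpt, Pdgfrl and Cd248) and 1 was lower in si mH2A1.1 (Pdgfrl). Without 1 sample, the 3 calls in si mH2A1.2 held in 4, 2 and 4 of the 9 fits. Their edgeR adjusted p-values reached 0.139, 0.139 and 0.0959, each without control replicate 1. The call in si mH2A1.1 held in all 9. Between the knockdowns 4 were lower in si mH2A1.1 (Osr1, Dpt, Pdgfrl and Cd248) and 1 was higher (Ly6a), and the median log2 fold changes were -0.99, 0.53 and -1.65 in the 3 comparisons. Adipocyte markers summed to at most 18.5 CPM in any sample, with Adipoq and Cidec at 0 counts in control and edgeR called 0 of 4 tested markers in each comparison, with 1, 2 and 2 at an unadjusted p under 0.05 and 0, 0 and 1 called by DESeq2. Osteoblast markers summed to 24.7 to 29.4 CPM in si mH2A1.1 against 39.3 to 66.4 CPM in control and 43.1 to 74.7 CPM in si mH2A1.2. To these sums Runx2 alone gave 26.5, 48.7 and 59.6 CPM on average. Of 3 tested, 1, Runx2, was called lower in si mH2A1.1 against both. Against control, Sp7 had a log2 fold change of -1.55 and Bglap of 1.48 in si mH2A1.1, both below 1 CPM on average and not called. The call of Runx2 against control held in 3 of the 9 fits without a sample (edgeR adjusted p up to 0.145), and that against si mH2A1.2 in all 9. Endothelial and blood markers summed to at most 13.7 CPM, with Adgre1 at 0 counts in control and si mH2A1.1, and 2 of 4 tested, Tek and Cd68, were higher in si mH2A1.1 than in control. The part of these markers in the differences of Myf6, Myf5, Myog, Mef2a and Pax7 was not tested.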

How the data were processed

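mRNA was sequenced in 9 samples of C2C12 cells on day 4 of differentiation. The authors quantified each gene with Salmon against the GRCm38 assembly. The deposited expected counts, Salmon's estimated counts per gene, are whole numbers without normalization and sum the isoforms of a gene. Salmon divides reads shared by related genes between them by estimation, and how many were shared is unknown. A second deposited table, of these counts scaled per sample, was not used. Gene symbols, positions and exon lengths came from GENCODE M21, which held 52762 of 52780 genes. Groups were taken from the labels.

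Genes were tested with edgeR 4.0.16 in R 4.3.3 (quasi-likelihood test in its legacy form, TMM, filterByExpr with a minimum count of 10), with all 9 samples in 1 model without a replicate term, 3 contrasts and Benjamini-Hochberg adjustment over 19545 genes. CPM are counts relative to the TMM-scaled total of the sample. Alternatives were DESeq2 1.42.0, its size factors in edgeR, no filter, a replicate block, only the samples of the 2 groups, a stricter rule (adjusted p below 0.01 and a log2 change of 0.8 or more in size), leaving out each sample, and the longest transcript's length. The test was checked on simulated data.

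Replicate numbers were checked by correlating deviations from the group means between samples of the same number. For si mH2A1.2 and control, r ranged from 0.196 to 0.331 and the numbers were taken as pairs, though the main tests hold no replicate term. The SE, p-values and fits without a sample given for this comparison are thus unpaired. No label states a pairing, but the deposited sample codes run consecutively across the 3 groups within each replicate number. No 2 replicates agreed within sampling noise (chi-square per degree of freedom of 27.1 or more).

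The members and gene lists were chosen with earlier results of these data known, among them the change of Myf6. All members were named, and from each list up to 4 called genes per contrast with the largest change, of at least 1 CPM and without overlap between the groups. Genes named beside small counts outside this rule were named after their values were seen. Some genes that this rule names are not reported here.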

Additional observations from a re-analysis of the deposited data

How the results depend on the processing

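With si mH2A1.1 against control, 4065 genes were called with the replicate block and 352 by the stricter rule (2171 in the report), and 605 to 2928 with 1 sample left out. With si mH2A1.2 against control, DESeq2 called 901, the block 1005 and the stricter rule 35 (460 in the report), and leaving out 1 sample gave 74 to 544. Between the knockdowns the stricter rule called 1247 (4397 in the report), and leaving out 1 sample gave 2251 to 4616. Of the factors, the stricter rule called 1, 1 and 3 in the 3 comparisons, and the fit on the samples of both groups called 1 with si mH2A1.2. Leaving out 1 sample gave 1 to 3, 1 in every case, and 3 to 5. The log2 fold change of Myod1 in si mH2A1.1 against control ranged from -0.033 (without control replicate 2) to 0.22, and that of Mef2d between the knockdowns from -0.085 to 0.038 (without si mH2A1.2 replicate 3). Of the values of the factors, 136 kept direction and side of the threshold under the other settings, 7 were lost and 1 was gained, and leaving out samples kept 187, lost 27 and reversed 2.

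In the comparisons with si mH2A1.1 the replicate numbers were not taken as pairs, since r ranged from 0.0841 to 0.0976 with control and from 0.0917 to 0.116 with si mH2A1.2. Samples of different numbers had lower r, from -0.0739 to -0.0213 and from -0.0961 to -0.0122. The main tests, without a replicate term, may thus leave out a weak replicate effect. With the replicate block, 4 factors were called with si mH2A1.1 against control, the gain being Pax7 (log2 fold change 0.66, edgeR adjusted p = 0.0314), and the block changed no other call of a factor. In the same comparison the block called 7 of 20 partners and inhibitors, 8 of 21 MEF2 cofactors, 5 of 13 premyogenic genes, 8 of 22 targets, 5 of 13 PAX targets (Sdc3, Itga7 and Plagl1 higher, Fgfr4 and Vcam1 lower) and 9 of 10 cycling markers. Of the 10 markers of differentiated muscle it called 5, with Ckm and Des higher and Myh3, Actc1 and Actn2 lower. By the length of the longest transcript, control levels were 57.9 for Mef2a, 13.5 for Mef2c, 46.7 for Mef2d and 0.0367 for Pax3. The causes were not tested. Depth limits Pax3, with at most 11 counts in a sample.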

Other observations

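Some genes annotated over the MEF2 genes were too low or too even to be called. Gm44667, on the strand of Mef2a, averaged 12.2 CPM over the 9 samples and had log2 fold changes of -0.05, 0.25 and -0.30 in the 3 comparisons. Between the knockdowns, Lysmd4, on the opposite strand of Mef2a, had a log2 fold change of -0.55 (edgeR adjusted p = 0.0211), while with si mH2A1.2 against control it was 0.0029. 1700113A16Rik, on the opposite strand of Mef2d, averaged 0.235 CPM and was not tested.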
